A study of Homo sapiens with 6 samples.

Results

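The genes described here are 54 components of the WNT pathway, chosen by name among the 62703 genes counted by RNA-seq in 22Rv1, a cell line from human prostate cancer. They comprise 12 WNT ligands, 2 genes for ligand processing and export, 10 Frizzled receptors, 2 LRP co-receptors, 3 alternative WNT receptors, 4 genes of receptor turnover and R-spondin recognition, 3 Dishevelled genes, 4 genes of the destruction complex, CTNNB1 (beta-catenin), 4 TCF factors, 3 coactivators and 6 feedback targets or inhibitors. All 54 were found in the counts, and 45 had enough counts to be tested. Cells received 25 pmol of siRNA, either a pool without a target (siCtrl, 3 libraries) or a pool against MED12 (siMED12, 3 libraries), 24 hours after seeding, the transfection medium was replaced 6 hours later, and poly(A) RNA was taken on day 3. MED12 is a subunit of the kinase module of Mediator, a complex that links transcription factors with RNA polymerase II. The comparison asks how MED12 knockdown changes the RNA of the pathway. Both groups consist of 1 cell line, and the knockdown was transient. The study's methods describe its experiments in general as done with biological replicates, while the labels of these libraries do not name their cultures, so p-values measure the spread between these libraries. In the fit with replicate numbers described below, they measure only the spread of the differences between libraries of equal number. In bulk RNA, fewer cells with a transcript and less transcript per cell cannot be told apart.

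WNT proteins are lipid-modified by Porcupine (PORCN), carried to the cell surface by Wntless (WLS) and bound by a Frizzled receptor together with LRP5 or LRP6. Without ligand, a complex of APC, Axin and GSK3 marks beta-catenin for degradation. With ligand, Dishevelled recruits Axin to the receptor, beta-catenin accumulates, and it activates transcription with TCF and LEF factors through BCL9 and Pygopus. Receptor levels are held down by the ubiquitin ligases RNF43 and ZNRF3, which R-spondins remove through LGR4 and LGR5. Several targets of the pathway, among them AXIN2, NKD1, DKK1 and NOTUM, feed back to limit it.

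MED12 itself was at 67.8, 77.7 and 72.6 CPM (counts-per-million, a gene's count scaled to the size of its library) in siCtrl replicates 1, 2 and 3, and at 23.9, 15.0 and 30.1 CPM in siMED12 replicates 1, 2 and 3. Library sizes in CPM were adjusted by edgeR's TMM method. Between libraries of equal replicate number MED12 differed by -64.8%, -80.7% and -58.5%, a log2 fold change of -1.66 ± 0.23 (SE; edgeR adjusted p = 0.0314). With single libraries left out the change stayed between -1.90 and -1.45, but edgeR's adjusted p rose to 0.0818 without siCtrl replicate 1, 0.186 without siCtrl replicate 2, 0.108 without siMED12 replicate 1 and 0.130 without siMED12 replicate 2. The libraries held 16136699 to 17012788 counts, and mitochondrial genes took 4.43%, 6.31% and 10.0% of them in siCtrl replicates 1 to 3 and 4.79%, 6.03% and 10.1% in siMED12 replicates 1 to 3. That share went with the replicate number and not with the treatment, and its part in the results was not tested. The luminal epithelial markers KRT8, KRT18, EPCAM, CDH1, HOXB13 and FOLH1 were all detected. Of these, KRT8 and KRT18 fell (log2 fold change -0.42 and -0.34) and CDH1 and HOXB13 rose (0.32 and 0.39) in the fit with replicate numbers described below. Markers of other cell types (KRT5, TP63, DCN, COL1A1, PECAM1 and PTPRC) summed to between 15.7 and 28.0 CPM in siCtrl and between 16.5 and 27.4 CPM in siMED12. Nearly all of that sum was COL1A1, without which it was at most 0.877 CPM, and KRT5 was at 0 in all libraries.

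When siMED12 was compared with siCtrl without regard to the replicate numbers, none of the 45 tested WNT genes passed edgeR's quasi-likelihood test at an adjusted p of 0.05, which 0.564% of all 17901 tested genes passed. At an unadjusted p below 0.05, 5 of the 45 were higher and 6 lower, beside 1370 higher and 1419 lower of all 17901 genes. The DESeq2 Wald test on the same design, which called 4.47% of all genes, called FZD6 higher (adjusted p = 0.00250) and LGR5 and DKK1 lower (adjusted p = 0.000988 and 0.00657). Limma-trend called none. Libraries of equal replicate number deviated together from their group means, so the replicate number was also fitted as a block. With this block, edgeR called 19 of the 45 genes (42.2%), 11 higher and 8 lower, against 33.3% of all tested genes (17.1% higher and 16.2% lower). Many genes of these cells thus passed in the blocked fit, and the WNT genes did so at a share not far above that of all genes. In the rest of the text, "rose" and "fell" refer to the blocked edgeR fit unless stated otherwise.

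The genes that rose were BCL9, CTNNB1, FZD1, FZD3, FZD5, FZD6, FZD7, LEF1, LGR4, LRP6 and PYGO2, and those that fell were AXIN1, DKK1, DVL1, FZD8, LGR5, LRP5, WNT7B and ZNRF3. Most of these changes were small: 12 of the 19 had an absolute log2 fold change under 0.4, and only LGR5 and DKK1 exceeded 1. The median change of the WNT genes was 0.06 on the log2 scale with the block and 0.05 without it, beside 0.02 for all genes in both fits, and their median absolute change was 0.26 beside 0.20. In 13 genes (28.9%) the 3 siMED12 libraries lay entirely above or below the 3 siCtrl libraries, as in 22.1% of all genes. These were CTNNB1, TCF7L2, LRP6, FZD3, FZD6, LGR4 and WNT5A above, and LRP5, FZD8, DVL1, LGR5, DKK1 and WNT7B below. For 28 of the 45 genes the range between replicates was larger than the change in both groups. Leaving out the replicate 1 pair reduced the genes that rose to 7 and those that fell to 7. Over all genes the calls also dropped, from 3058 higher and 2908 lower of 17901 to 2070 and 2578 of 18113. The calls of LEF1 (adjusted p = 0.148) and FZD5 (0.130) were lost without that pair alone, and those of FZD7, PYGO2 and AXIN1 were lost under at least 3 of the 7 alternatives to the blocked fit. The other 14 genes passed under all 7, and GSK3B, FZD9, NKD2 and SP5 passed under at least 1 of the 7.

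**Figure D1:**
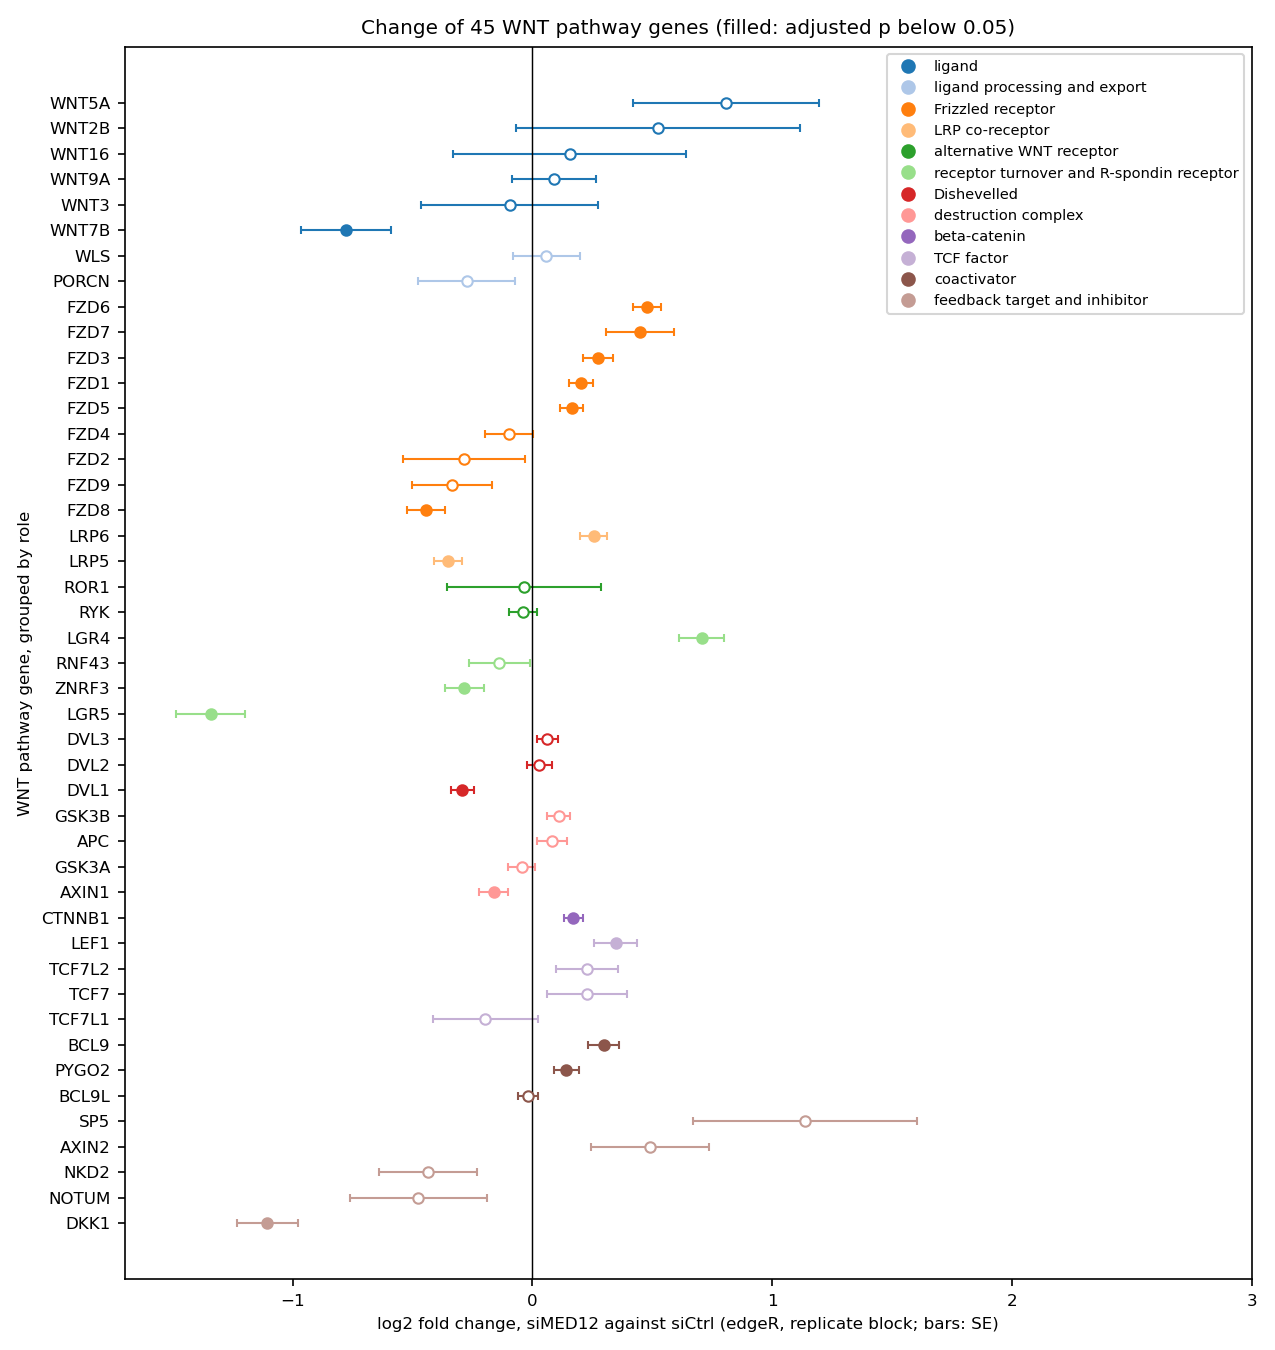
Log2 fold change (x axis, siMED12 against siCtrl) of the 45 tested WNT genes (y axis, grouped and coloured by role) in edgeR's blocked fit; bars are SE and filled points have an adjusted p below 0.05. LGR5 and DKK1 lie furthest to the left, 11 filled points lie to the right of 0 and 8 to the left, and genes of the same role lie on both sides.

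The levels of the genes in siCtrl cells, compared as CPM per kilobase of annotated exon, spanned several orders of magnitude. Of the 52 genes with at least 1 count in siCtrl, 11 reached 10 CPM per kilobase and 19 stayed under 1. DVL1 (38.7), CTNNB1 (32.5), PYGO2 (32.2) and DVL3 (27.3) were the highest by this measure. The most abundant receptors were FZD5 (17.2 CPM per kilobase), FZD1 (14.1), FZD6 (13.0) and LRP5 (12.1), while the most abundant of the 12 ligands, WNT9A and WNT7B, reached 1.46 and 1.31. Outside these 12, the ligands WNT10B and WNT8B reached 8.78 and 2.85 CPM per kilobase. In the order of levels, 44 of the 51 neighbouring pairs overlapped over the siCtrl libraries. The 7 that did not were DVL1 above CTNNB1, DVL3 above BCL9L, LRP5 above AXIN1, LRP6 above LEF1, FZD9 above FZD4, FZD2 above TCF7 and WNT16 above WNT5A. The exon length counts every annotated exon of a gene, used or not, which lowers the value of genes with many isoforms.

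**Figure D2:**
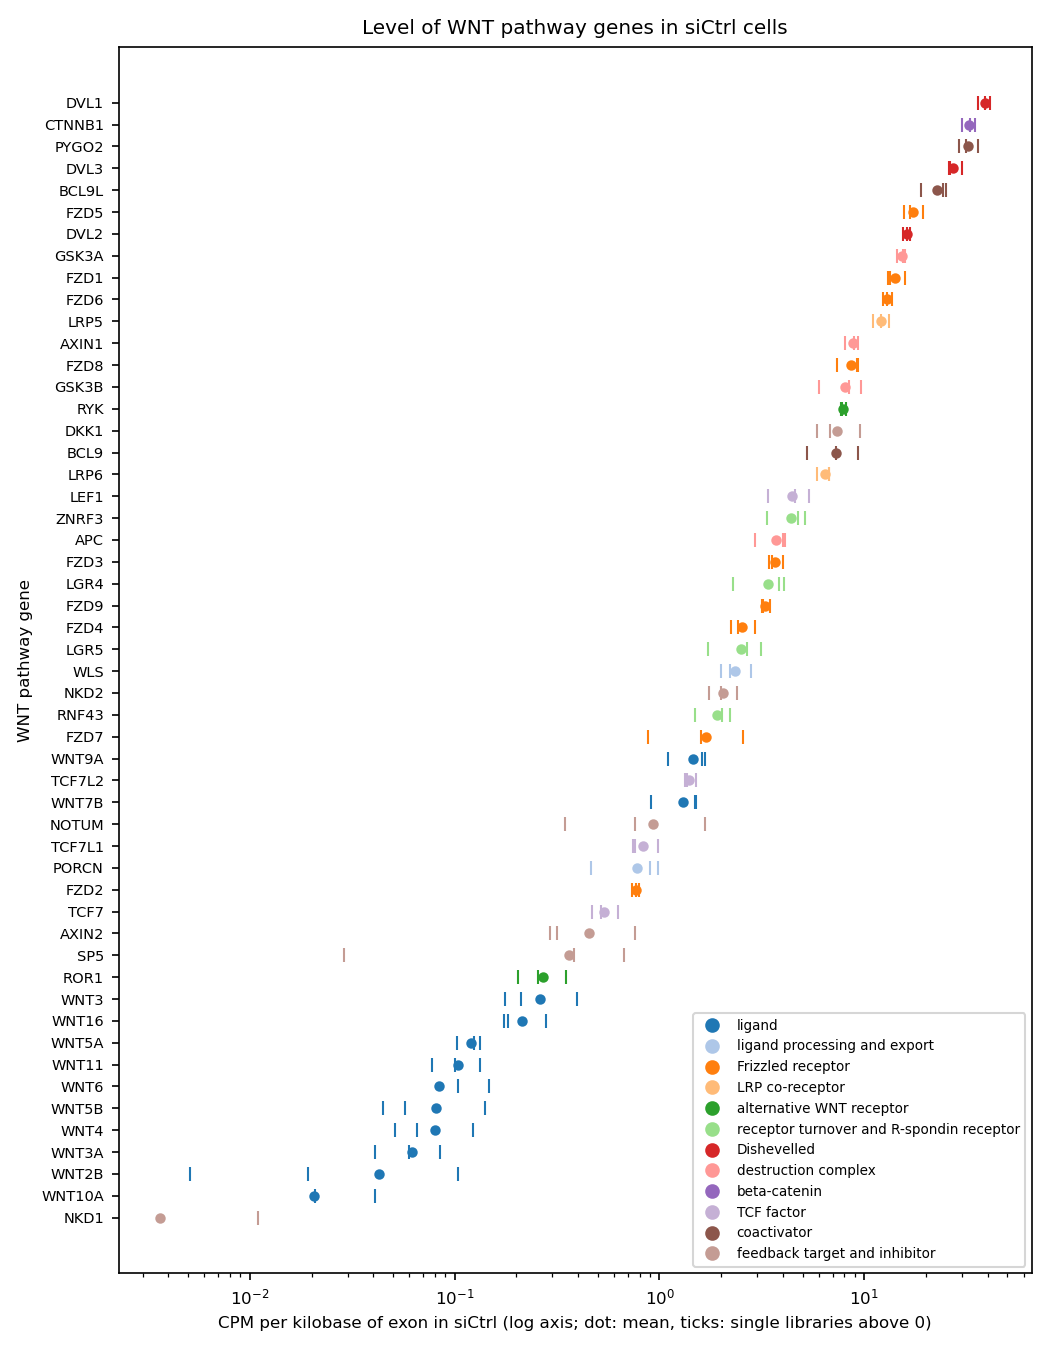
Level in siCtrl cells (x axis, CPM per kilobase of exon, log axis) of the 52 WNT genes with at least 1 count there (y axis, in order of level, coloured by role); dots are means of 3 libraries and ticks single libraries above 0. DVL1, CTNNB1, PYGO2, DVL3 and BCL9L lie at the top, and most ligands lie near the bottom.

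The 12 ligands were scarce, unlike WNT10B. Of them, WNT3A, WNT4, WNT5B, WNT6, WNT10A and WNT11 had too few counts to be tested, with between 0 and 14 counts in any library. WNT7B, a ligand of epithelia (chromosome 22, 45920366 to 45977162, minus strand), was at 4.64, 7.59 and 7.68 CPM in siCtrl replicates 1 to 3 and at 3.92, 4.21 and 3.32 CPM in siMED12. The groups did not overlap, although siCtrl replicate 1 lay close to the siMED12 libraries. WNT7B fell by 0.78 ± 0.19 on the log2 scale (SE; edgeR adjusted p = 0.00118 with the block, 0.191 without). WNT5A, known mainly for signalling that does not use beta-catenin, had 15, 15 and 12 counts in siCtrl and 32, 26 and 18 in siMED12. Its groups did not overlap either, but at these counts its change of 0.81 ± 0.39 did not pass edgeR's threshold (adjusted p = 0.110 with the block). WNT9A (5.83 against 6.15 CPM, siCtrl mean first), WNT3 (1.40 against 1.39), WNT16 (0.693 against 0.790) and WNT2B (0.527 against 0.665) did not pass either. Neither did the export genes PORCN, the acyltransferase (4.51 against 3.68 CPM), and WLS, the carrier (10.4 against 10.8 CPM).

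Of the 10 Frizzled receptors, 9 were tested, of which 5 rose and 1 fell (66.7% of 9 genes, beside 33.3% of all tested genes). FZD6, a receptor known for planar polarity (chromosome 8, 103298433 to 103332866, plus strand), was at 50.3, 55.5 and 52.5 CPM in siCtrl and at 75.1, 72.6 and 72.5 CPM in siMED12. The replicates were tight and the groups far apart, with increases of 49.4%, 30.9% and 38.2% in the 3 pairs. The log2 fold change of FZD6 was 0.48 ± 0.06 with the block (edgeR adjusted p = 3.38e-08) and 0.48 ± 0.09 without it (adjusted p = 0.0650). FZD7, which is studied as a receptor of stem cells (chromosome 2, 202033855 to 202038441, plus strand), was at 4.05, 7.34 and 11.7 CPM in siCtrl and at 6.47, 9.88 and 14.6 CPM in siMED12. The groups overlapped widely and the replicates differed more than the treatments, but the gene was higher in all 3 pairs (log2 fold change 0.45 ± 0.14, edgeR adjusted p = 0.0120 with the block and 0.700 without). Its adjusted p was 0.107 without the replicate 1 pair and 0.0523 without the replicate 2 pair. FZD8 (chromosome 10, 35638247 to 35642296, minus strand) was the Frizzled gene that fell, from 37.6, 37.4 and 29.7 CPM in siCtrl to 29.2, 27.1 and 20.8 CPM in siMED12. The groups did not overlap, and the differences within pairs were -22.4%, -27.6% and -30.0% (log2 fold change -0.45 ± 0.08, edgeR adjusted p = 1.95e-05 with the block and 0.245 without).

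The other Frizzled genes that rose changed less. FZD3 was at 49.1, 47.3 and 55.0 CPM in siCtrl and at 63.3, 56.4 and 63.1 CPM in siMED12, with no overlap (0.27 ± 0.06 on the log2 scale, edgeR adjusted p = 0.000617). FZD1 was at 89.9, 109 and 91.7 CPM in siCtrl and at 104, 123 and 107 CPM in siMED12, where the groups overlapped although every pair moved up (0.20 ± 0.05, edgeR adjusted p = 0.00127). FZD5 was at 117, 137 and 110 CPM against 135, 150 and 122 CPM, again overlapping (0.16 ± 0.05, edgeR adjusted p = 0.00601, and 0.130 without the replicate 1 pair). Without the block, edgeR's adjusted p-values of these 3 genes were 0.269, 0.449 and 0.580. FZD2, FZD4 and FZD9 had fitted changes of -0.28, -0.10 and -0.34 that did not pass, although FZD9 passed without the replicate 2 pair (-0.65, edgeR adjusted p = 0.00676). FZD10 and the alternative receptor ROR2 had 0 counts in all 6 libraries, which allows at most 0.176 to 0.186 CPM of the unadjusted library size, for counting error only. The remaining alternative receptors, ROR1 (1.81 against 1.75 CPM) and RYK (64.3 against 62.6 CPM), did not pass.

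The paired LRP co-receptors went in opposite directions. LRP5 (chromosome 11, 68312591 to 68449275, plus strand) was at 67.9, 81.9 and 74.2 CPM in siCtrl and at 58.6, 59.5 and 57.0 CPM in siMED12. LRP6 (chromosome 12, 12116025 to 12267044, minus strand) was at 69.9, 69.5 and 61.2 CPM in siCtrl and at 86.4, 80.0 and 73.2 CPM in siMED12. Neither gene's groups overlapped. LRP5 fell by 0.35 ± 0.06 on the log2 scale (edgeR adjusted p = 9.92e-06 with the block, 0.151 without) and LRP6 rose by 0.26 ± 0.06 (adjusted p = 0.000347 with the block, 0.291 without). The group mean of LRP5 went from 74.7 ± 6.97 to 58.4 ± 1.29 CPM and that of LRP6 from 66.9 ± 4.92 to 79.9 ± 6.57 CPM (mean ± SD, n = 3).

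The R-spondin receptors were also split, and held the largest decrease (LGR5) and the largest increase (LGR4) among the 19 genes called in the blocked fit. LGR5, a stem cell marker and WNT target (chromosome 12, 71439798 to 71586310, plus strand), was at 16.3, 13.9 and 8.96 CPM in siCtrl and at 6.59, 5.20 and 3.63 CPM in siMED12. The groups did not overlap, and the differences within pairs were nearly equal at -59.6%, -62.6% and -59.5%. LGR5 fell by 1.34 ± 0.14 on the log2 scale (edgeR adjusted p = 8.11e-10 with the block, 0.0874 without). LGR4, its more widely expressed relative (chromosome 11, 27365961 to 27472790, minus strand), was at 25.8, 24.3 and 14.6 CPM in siCtrl and at 34.3, 38.3 and 31.5 CPM in siMED12. Its groups did not overlap, but the increases within pairs ranged from 33.3% through 57.7% to 116%, and siCtrl replicate 3 was the lowest library. LGR4 rose by 0.71 ± 0.09 (edgeR adjusted p = 8.87e-08 with the block, 0.171 without). The LGR4 mean thus went from 21.5 ± 6.08 to 34.7 ± 3.42 CPM and that of LGR5 from 13.1 ± 3.74 to 5.14 ± 1.48 CPM (SD, n = 3).

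Of the ubiquitin ligases that R-spondins remove, ZNRF3 (chromosome 22, 28883572 to 29057488, plus strand) was at 36.0, 33.1 and 23.3 CPM in siCtrl and at 28.9, 27.0 and 19.8 CPM in siMED12. The groups overlapped, and the pairs differed by -19.8%, -18.3% and -15.0% (log2 fold change -0.28 ± 0.08, edgeR adjusted p = 0.00519 with the block and 0.565 without). RNF43 was at 14.0, 12.8 and 9.39 CPM in siCtrl and at 14.5, 9.82 and 8.83 CPM in siMED12. Its groups overlapped, its pairs went in both directions, and its change of -0.14 ± 0.13 did not pass (edgeR adjusted p = 0.439 with the block).

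**Figure D3:**
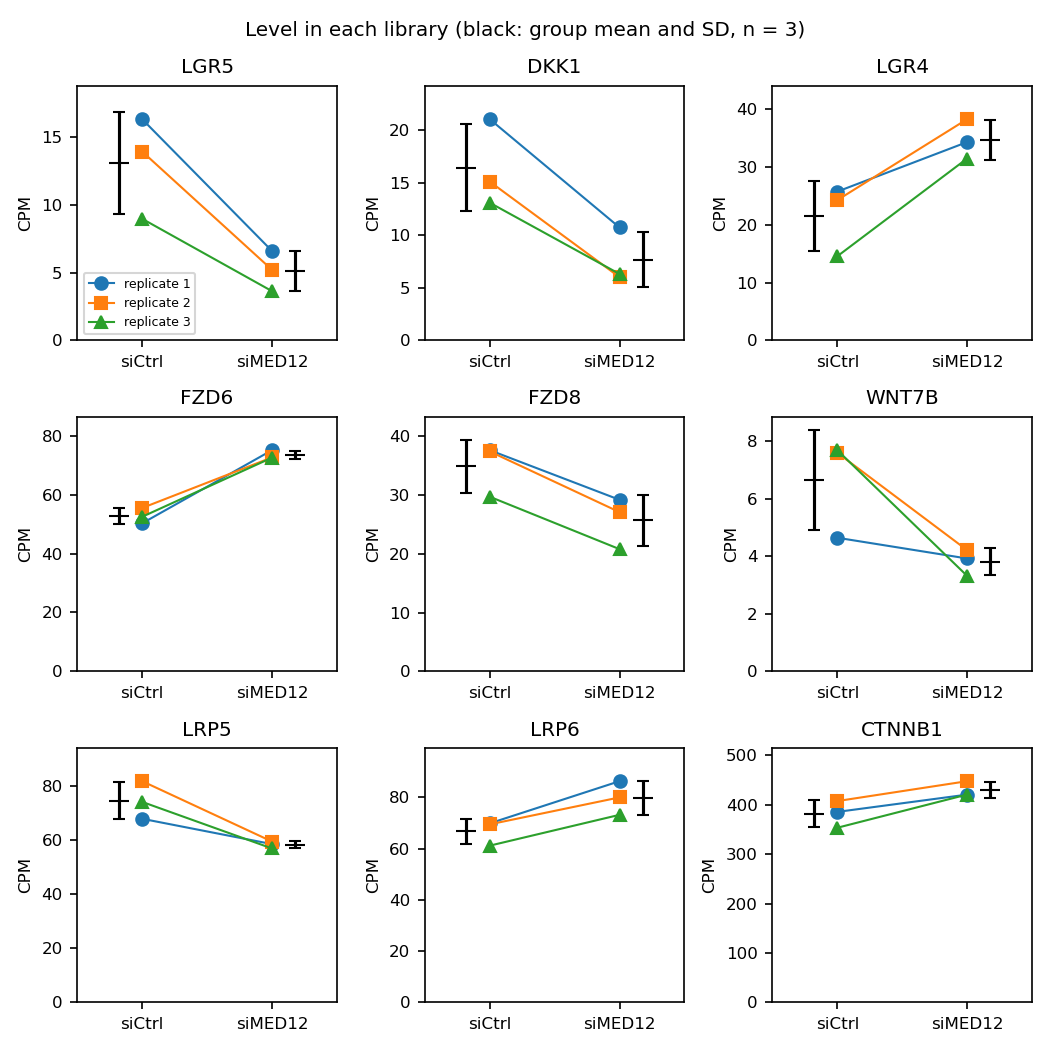
CPM (y axis, from 0) of 9 WNT genes in siCtrl and siMED12; points are single libraries, lines join libraries of equal replicate number, and black bars are the group mean and SD (n = 3). All lines of LGR5, DKK1, FZD8, WNT7B and LRP5 go down and all lines of LGR4, FZD6, LRP6 and CTNNB1 go up, and in none of the 9 do the groups overlap.

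Among the Dishevelled genes, which pass the signal from the receptor, DVL1 was at 140, 160 and 150 CPM in siCtrl and at 115, 129 and 124 CPM in siMED12. The groups did not overlap and the pairs differed by similar amounts (-18.1%, -19.9% and -17.0%). DVL1 fell by 0.29 ± 0.05 on the log2 scale (edgeR adjusted p = 3.11e-06 with the block, 0.181 without). DVL2 and DVL3, with fitted changes of 0.03 and 0.06, did not pass.

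The 4 genes counted here as the destruction complex (APC, AXIN1, GSK3A and GSK3B) changed little. The scaffold AXIN1 (chromosome 16, 287440 to 352723, minus strand) was at 70.4, 67.1 and 60.9 CPM in siCtrl and at 59.8, 64.5 and 53.3 CPM in siMED12, with overlapping groups. It fell by 0.16 ± 0.06 (edgeR adjusted p = 0.0334 with the block, 0.555 without), and its adjusted p was 0.188 without the replicate 1 pair and 0.134 without the replicate 3 pair. The scaffold APC was at 54.9, 56.1 and 40.0 CPM against 59.1, 58.8 and 42.1 CPM, so replicate 3 stood below the others in both groups and the pairs differed by 7.75%, 4.83% and 5.03% (edgeR adjusted p = 0.341 with the block). The kinase GSK3A was at 83.5, 89.1 and 91.6 CPM against 72.9, 95.4 and 88.9 CPM, with a fitted change of -0.04 with and without the block. Without the block, the sign of the GSK3A change depended on the scaling: it was 0.0010 with library size alone. Its relative GSK3B was at 151, 173 and 108 CPM against 170, 170 and 123 CPM (0.11 ± 0.05, edgeR adjusted p = 0.0739 with the block). Neither kinase passed in the blocked fit, but GSK3B did in it with library size alone (0.15, edgeR adjusted p = 0.00844) and without the replicate 2 pair (0.16, adjusted p = 0.0184).

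CTNNB1 (chromosome 3, 41194741 to 41260096, plus strand) was at 386, 408 and 354 CPM in siCtrl and at 421, 448 and 421 CPM in siMED12. The groups did not overlap, and the pairs were 9.07%, 9.88% and 19.0% higher. The mean went from 382 ± 27.2 to 430 ± 15.7 CPM (SD, n = 3), a log2 fold change of 0.17 ± 0.04 (edgeR adjusted p = 0.000610 with the block, 0.409 without). This is the RNA of beta-catenin, whose activity is set largely by the stability and location of the protein, which was not measured.

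Of the TCF factors, LEF1, which mostly activates (chromosome 4, 108047545 to 108168956, minus strand), was at 24.7, 28.9 and 18.1 CPM in siCtrl and at 35.8, 29.9 and 25.1 CPM in siMED12. The groups overlapped, and the pairs were higher by 45.1%, 3.36% and 38.6%. LEF1 rose by 0.35 ± 0.09 (edgeR adjusted p = 0.00205 with the block, 0.473 without), but its adjusted p was 0.148 without the replicate 1 pair. TCF7L2 was at 8.92, 10.2 and 9.20 CPM against 11.0, 10.9 and 11.3 CPM. Its groups did not overlap, yet its change of 0.23 ± 0.13 did not pass (edgeR adjusted p = 0.185 with the block). TCF7 was at 6.31, 4.74 and 5.24 CPM against 7.13, 5.91 and 6.01 CPM, and TCF7L1, which mostly represses, at 3.27, 4.36 and 3.35 CPM against 3.27, 3.33 and 2.94 CPM. Neither passed (edgeR adjusted p = 0.318 and 0.534 with the block).

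The coactivator BCL9, which bridges beta-catenin and Pygopus, was at 59.2, 46.2 and 33.2 CPM in siCtrl and at 74.9, 56.2 and 39.7 CPM in siMED12. The replicates differed more than the treatments, but the pairs rose by similar amounts (26.5%, 21.8% and 19.5%). Its log2 fold change was 0.30 ± 0.06 with the block (edgeR adjusted p = 0.000295) and 0.30 ± 0.26 without it (adjusted p = 0.653). PYGO2 differed by 8.41% and 24.6% in pairs 1 and 2 and by -0.589% in pair 3. Its adjusted p of 0.0316 in edgeR's blocked fit became 0.144 without the replicate 1 pair and 0.789 without the replicate 2 pair. BCL9L had a fitted change of -0.02 and did not pass.

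The feedback targets did not move together. DKK1, a secreted inhibitor that binds LRP5 and LRP6 (chromosome 10, 52314281 to 52318042, plus strand), was at 21.1, 15.1 and 13.1 CPM in siCtrl and at 10.8, 6.02 and 6.32 CPM in siMED12. The groups did not overlap, and the pairs differed by -48.9%, -60.2% and -51.8%. DKK1 fell by 1.11 ± 0.13 on the log2 scale (edgeR adjusted p = 4.22e-09 with the block, 0.121 without). AXIN2, a widely used reporter of beta-catenin activity, had only 66, 26 and 25 counts in siCtrl and 88, 33 and 44 in siMED12. The replicate 1 libraries were the highest of both groups, the groups overlapped, and a change of 0.49 ± 0.25 did not pass (3.93, 1.64 and 1.52 CPM against 5.23, 1.93 and 2.75 CPM; edgeR adjusted p = 0.129 with the block). Without siMED12 replicate 1, its unblocked log2 fold change was -0.04.

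SP5, a transcription factor gene and direct target, had 1, 22 and 13 counts in siCtrl and 28, 31 and 17 in siMED12. It had the largest positive fitted change of the 45 genes (1.14 ± 0.47), in which siCtrl replicate 1 with its single count stood apart, and which did not pass edgeR's threshold (adjusted p = 0.0574 with the block). With the block, SP5 passed in limma-trend (adjusted p = 0.0201), without the replicate 2 pair (1.72, edgeR adjusted p = 0.0203) and without the replicate 3 pair (adjusted p = 0.0209), but stood at 0.38 without the replicate 1 pair (adjusted p = 0.605). NKD2, an inhibitor that binds Dishevelled, was at 5.83, 5.06 and 6.95 CPM against 4.46, 6.08 and 2.82 CPM, with pairs in both directions (-0.44 ± 0.20, edgeR adjusted p = 0.0979 with the block, and -0.84 with an adjusted p of 0.00173 without the replicate 2 pair). NOTUM, a secreted enzyme that removes the lipid of WNT proteins, had a fitted change of -0.48 that did not pass. NKD1 had 0, 3 and 0 counts in siCtrl and 0, 5 and 3 in siMED12 and was not tested. Of the 5 tested genes placed in this role, therefore, DKK1 alone passed in the blocked fit of all 6 libraries. LGR5, also a WNT target but placed with the R-spondin receptors, fell as well.

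TCF and LEF factors bind sites that start with CTTTG and go on with A or T. The word CTTTGAA, and the words with T in place of A at either or both of its last positions, were looked for on both strands in the 250 bases before each transcription start in RefSeq's promoter table (GRCh38.p14). At least 1 word was found before 4199 of the 35116 starts (12.0%), at least 2 before 1.21% and at least 3 before 0.122%. For the WNT genes the table held 50 starts of 40 genes, of which 4 (8.0%) had a word. SP5 had 3, at 148, 109 and 84 bases before the start, DKK1 had 2, at 95 and 76 bases, TCF7L2 had 1 at 133 bases and TCF7 had 1 at 50 bases. The table held no entry for AXIN2, BCL9L, FZD2, FZD3, FZD6, FZD7, FZD10, LGR5, LRP6, NKD1, NOTUM, WNT7B, WNT11 and ZNRF3. The sequences of DKK1 and SP5 are shown because they were the WNT genes with more than 1 word and stood at opposite ends of the fitted changes among the feedback targets. Both are on the plus strand, DKK1 at chr10:52314031-52314280 and SP5 at chr2:170715087-170715336, and capitals mark the words or their reverse complements.
DKK1: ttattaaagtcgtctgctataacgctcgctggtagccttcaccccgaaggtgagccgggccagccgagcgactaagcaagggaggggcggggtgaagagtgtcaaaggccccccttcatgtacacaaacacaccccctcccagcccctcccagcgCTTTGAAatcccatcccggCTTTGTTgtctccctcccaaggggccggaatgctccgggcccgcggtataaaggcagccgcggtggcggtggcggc
SP5: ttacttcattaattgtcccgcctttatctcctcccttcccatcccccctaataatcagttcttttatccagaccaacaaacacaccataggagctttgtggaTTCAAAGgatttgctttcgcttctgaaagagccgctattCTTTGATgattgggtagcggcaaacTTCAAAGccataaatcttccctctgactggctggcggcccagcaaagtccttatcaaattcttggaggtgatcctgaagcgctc
A word in this window is a match of letters only. No binding was measured here.

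Within pairs, 17 of the 45 genes were higher in all 3 and 11 were lower in all 3, beside 5476 and 4839 of the 17901 genes. The genes with the most even decreases were LGR5 and DVL1, while LGR4, WNT7B and LEF1 changed by quite different amounts in different pairs. Pair 1 held the smallest changes of LGR4 and WNT7B. Of the 19 genes that passed in the blocked fit, PYGO2 was the only one with pairs in both directions.

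**Figure D4:**
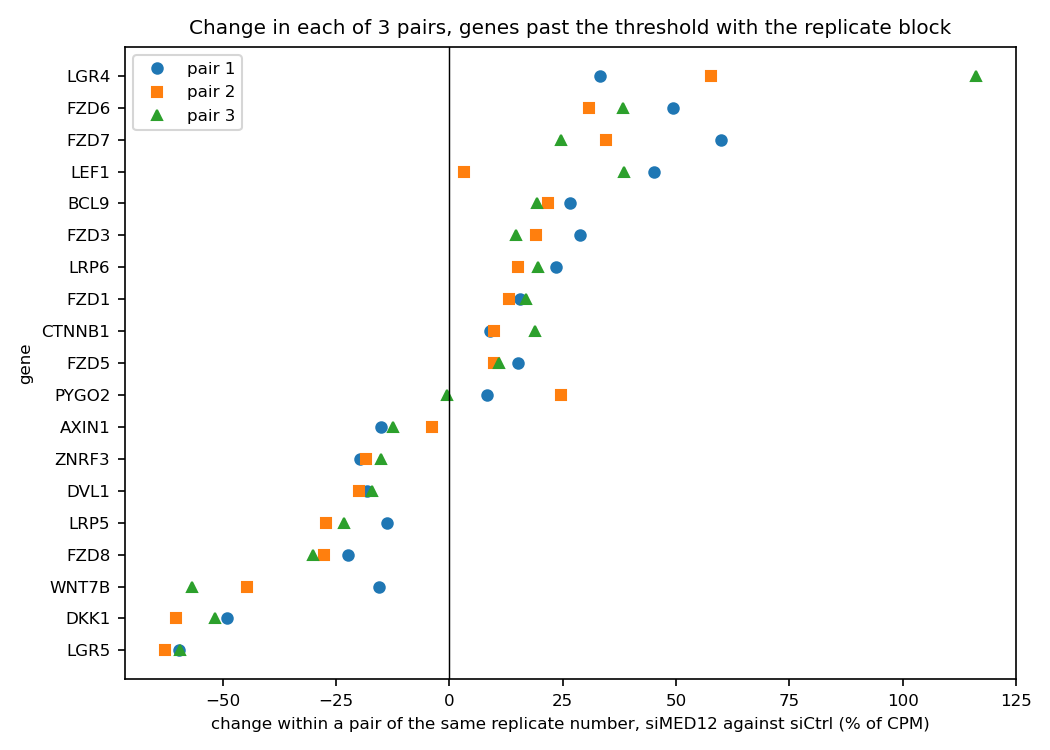
Change in CPM within each pair of equal replicate number (x axis, percent, siMED12 against siCtrl) for the 19 WNT genes past the threshold in edgeR's blocked fit (y axis); each symbol is 1 pair. The 3 symbols of LGR5 lie between -62.6% and -59.5%, whereas those of LGR4 run from 33.3% to 116%.

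A further 71 genes of the pathway machinery, outside the 54, were examined in the same fits, and 51 had enough counts. Without the block edgeR called 1, WNT10B, lower and none higher (7 higher and 3 lower at an unadjusted p below 0.05, beside 1370 and 1419 of all 17901 genes). With the block 21 were higher and 10 lower (60.8%, beside the 33.3% of all genes), with a median change of 0.06. The number higher was 13 without the replicate 2 pair and also without the replicate 3 pair. Over all genes it went from 3058 to 2199 and 2375 in these fits. WNT10B, a ligand, was at 22.4, 24.3 and 21.9 CPM in siCtrl and at 10.3, 6.72 and 7.82 CPM in siMED12, with groups far apart. Its log2 fold change was -1.46 ± 0.19 without the block (edgeR adjusted p = 0.0297) and -1.47 ± 0.12 with it. The unblocked adjusted p of WNT10B was 0.0833 without siCtrl replicate 1, 0.186 without siCtrl replicate 2, 0.0788 without siMED12 replicate 1, 0.175 without siMED12 replicate 2 and 0.0573 without siMED12 replicate 3.

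The other largest changes of the machinery in the blocked fit included an inhibitor and a receptor of inhibitors. KREMEN1, a receptor through which DKK1 acts on LRP6, was at 5.89, 7.40 and 8.35 CPM in siCtrl and at 15.1, 13.7 and 15.4 CPM in siMED12 (log2 fold change 1.04 ± 0.13, edgeR adjusted p = 5.28e-08 with the block and 0.0585 without). Its more abundant relative KREMEN2 went the other way, at 68.6, 73.4 and 93.4 CPM against 60.0, 62.7 and 78.4 CPM. The groups of KREMEN2 overlapped (-0.22 ± 0.06, edgeR adjusted p = 0.00148 with the block and 0.539 without). CXXC4, an inhibitor that binds Dishevelled, was at 7.32, 6.26 and 6.95 CPM against 10.3, 13.5 and 13.3 CPM (0.85 ± 0.14, edgeR adjusted p = 7.73e-06 with the block and 0.0859 without). The ligand WNT2 was at 1.31, 1.01 and 1.10 CPM against 3.45, 2.86 and 1.44 CPM (1.14 ± 0.32, edgeR adjusted p = 0.00543 with the block and 0.190 without). In none of KREMEN1, CXXC4 and WNT2 did the groups overlap. The ligand WNT8B was lower, at 5.89, 6.45 and 5.97 CPM against 4.04, 3.86 and 3.82 CPM (-0.64 ± 0.18, edgeR adjusted p = 0.00476 with the block and 0.166 without). TRABD2A, a protease that cleaves WNT proteins, was at 3.21, 2.21 and 2.56 CPM against 1.66, 1.05 and 2.13 CPM (-0.74 ± 0.29, edgeR adjusted p = 0.0458 with the block). WNT8B's groups did not overlap, and neither did those of TRABD2A, by a narrow margin.

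Of 23 further genes described as beta-catenin targets, 15 were tested. Without the block edgeR called none (1 higher and 1 lower at an unadjusted p below 0.05, beside 1370 and 1419 of all 17901 genes). With the block 1 was higher and 5 lower (40.0%, beside 33.3% of all genes, 17.1% higher and 16.2% lower). The median change of the targets in that fit was -0.18, beside 0.02 for all genes. ASCL2, a transcription factor of intestinal stem cells, was the 1 that was higher, at 1.49, 1.33 and 1.52 CPM against 2.08, 3.10 and 2.75 CPM (0.85 ± 0.30, edgeR adjusted p = 0.0224 with the block), and no target was called higher without the replicate 2 pair or without the replicate 3 pair. CD44, a cell surface receptor, was at 72.1, 75.8 and 71.3 CPM against 54.4, 50.8 and 53.1 CPM, with groups far apart (-0.47 ± 0.06, edgeR adjusted p = 5.02e-08 with the block and 0.0654 without). CEMIP, a hyaluronan-binding protein, was at 14.9, 11.1 and 14.5 CPM against 10.8, 6.43 and 11.3 CPM (-0.52 ± 0.13, edgeR adjusted p = 0.00118 with the block). MYC, the growth regulator, stood at 217, 51.7 and 24.3 CPM in siCtrl and at 92.5, 21.3 and 13.0 CPM in siMED12. Its replicates differed far more than its treatments, and within pairs it differed by -57.4%, -58.8% and -46.3% (log2 fold change -1.18 ± 0.07, edgeR adjusted p = 3.91e-17 with the block). Without the block the MYC change was -1.21 ± 0.89 (adjusted p = 0.586), and it was 0.14 without siCtrl replicate 1.

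Counting on the wrong gene is possible where exons of another gene lie on the opposite strand, since the use of strand in counting was not stated. Such overlaps took 37.5% of the exon bases of BCL9L, 21.5% of WNT2B, 18.9% of FZD4, 10.2% of DKK1 and 8.6% of WNT11. They took 7.85% of FZD8, 5.45% of RNF43, 5.20% of LEF1, 5.08% of NOTUM, 4.45% of TCF7L2 and 4.07% of PYGO2. For LGR5, GSK3A and FZD6 they took 3.98%, 3.41% and 3.39%, and for the other WNT genes less. Exons of other genes on the same strand, which strand cannot separate, covered 4326 of the 6329 exon bases of RNF43. For AXIN2 they covered 1316 of 5197. The part of either kind of overlap in the values was not tested.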

How the data were processed

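Poly(A) RNA of 6 libraries was sequenced, and groups and replicate numbers came from the labels. The deposited counts are raw reads per gene. Per the methods the authors aligned and counted strand-specific reads with Rsubread against GRCh38 with a Gencode annotation. The Rsubread version and its strand setting were not given in the sources used here. The authors also deposited log2 CPM values for 17901 genes, which carry no batch correction: recomputing them from the counts changed them by at most 4.96e-09.

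Counts were tested with edgeR 4.0.16 in R 4.3.3 (expression filter, TMM, quasi-likelihood F-test, Benjamini-Hochberg over all 17901 genes, threshold 0.05, two-sided), since edgeR is named in the methods and no block is stated there. A figure legend mentions batch correction of a heatmap from 22Rv1 cells but not what the batches were, and so a batch term in the authors' own fit is possible. Same-numbered libraries deviated together (correlations across genes 0.532, 0.373 and 0.643; different numbers -0.460 to -0.0233), so the replicate number was taken to pair them, and the blocked fit is given beside the unblocked one. Deviations from a group mean cancel out within the group, so the negative correlations follow in part from the positive ones. No replicates were duplicates (chi-square per degree of freedom 11.3 to 45.7). DESeq2 1.42.0, limma 3.58.1 on the deposited log2 CPM, other scalings and filters, and leaving out each library or pair were alternatives. SE came from the fold change and F. The procedure was tested on simulated data in which same-numbered libraries shared their means apart from the changes put in. That setting favours the blocked fit and cannot show how well the real libraries are paired. Coordinates and exon lengths are from Gencode 44 (GRCh38). Precision is limited by 3 libraries a group, and intervals for 0 counts use 3 counts.

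The WNT genes, lists and tests were chosen with earlier results of these data known. Values are given for 14 fixed genes, for called genes with an absolute log2 fold change of at least 0.4, for up to 3 genes per direction of each further list (blocked adjusted p below 0.05, mean of at least 1 CPM), for WNT10B and for MED12. Any other gene was named with its values known. A marker gene of the cell type check is not reported here.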

Additional observations from a re-analysis of the deposited data

How the results depend on the processing

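With the replicate block, in place of no block, the WNT genes called went from 0 to 11 higher and from 0 to 8 lower, those of the further machinery from 0 to 21 higher and from 1 to 10 lower, and those of the further targets from 0 to 1 higher and from 0 to 5 lower. This paired fit had a common dispersion of 0.00228 against 0.0368, and MED12 and WNT10B passed in both. Without the block, the DESeq2 Wald test called 1 WNT gene higher and 2 lower, 2 machinery genes higher and 1 target lower, testing without an expression filter called 1 WNT gene higher and 2 lower (LGR4, LGR5 and DKK1) and 2 machinery genes higher, and a mean of at least 1 CPM called 1 target lower. In that order, these settings called 319, 186 and 34 genes higher and 482, 290 and 118 lower of 17901, 34030 and 16286 tested. Within the block, the DESeq2 Wald test called 12 machinery genes higher and 5 lower and 0 targets higher, and library size alone called 2 targets higher. Of all 17901 genes, this DESeq2 test called 1780 higher and 2063 lower, and library size alone called 3807 and 2413. Leaving out 1 pair gave 7 to 12 WNT genes higher and 7 to 10 lower, 13 to 14 machinery genes higher and 0 to 1 targets higher. Calls over all genes then numbered 2070 to 2375 higher and 2578 to 2654 lower. Leaving out 1 library without the block gave 0 to 1 machinery genes lower, a MED12 log2 fold change of -1.90 to -1.45, and a median change of the WNT genes of -0.018 to 0.057. Among all genes, 0 to 8 were then called higher and 0 to 37 lower. Over the alternatives to the unblocked fit, 17 of the 45 WNT genes took both signs. Of the genes given by library, those whose sign turned without 1 library were APC (-0.058 to 0.23), AXIN2 (-0.036 to 1.03), GSK3A (-0.14 to 0.048), GSK3B (-0.070 to 0.26), RNF43 (-0.39 to 0.0092) and MYC (-2.52 to 0.14). GSK3A also turned with library size alone (0.0010) and, with the block, without the replicate 1 pair (0.0100). The cause was not tested. Low counts limit what could be seen for most ligands, AXIN2 and SP5.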
